A study of Mus musculus with 3 samples.

Results

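Microexons of 3 to 30 nt were taken from full-length transcript models of mouse CD4+ T cells. The models came from PacBio long-read sequencing of 3 libraries from spleens and lymph nodes of male WT mice: naive CD4+ T cells, CD4+ T cells 48 h after activation that had not divided, and CD4+ T cells 48 h after activation with 2 divisions. Wells coated with an antibody to CD3 (2C11), with an antibody to CD28 (PV-1) in the medium, activated the cells, and dilution of the CellTrace Violet dye told the divisions. A member is a distinct internal exon (an exon with another exon on either side in the same model, defined by chromosome, strand, start and end) of 3 to 30 nt, pooled over the 3 libraries. By this rule 340 of 61540 internal exons were members, and 299 of them are internal exons of the GENCODE M21 annotation on GRCm38. Each condition had 1 library, so no test was possible and each difference below compares libraries. The deposited models carry no read counts, so a value is a number of distinct isoforms and not an abundance. Shares are given with exact Clopper-Pearson 95% intervals, which cover counting error only, as isoforms and exons of the same gene are not independent. The names of the deposited files mark both activated libraries with one sequencing cell and the naive library with another, and naive against activated therefore cannot be told apart from cell against cell of the sequencer.

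Microexons are too short for the usual recognition of an exon as a unit between its splice sites, and many depend on a strong pyrimidine tract and on nearby enhancer motifs. In neurons the splicing regulator Srrm4 drives the inclusion of many such exons through a UGC motif close before the exon, while Ptbp1 represses them in other cell types. A microexon whose length is a multiple of 3 adds a few amino acids and keeps the reading frame, and a microexon of another length shifts the frame when it is left out.

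The members on which the results below turn are shown first, with the exon in capitals and, where 30 bases allow, the last 2 bases of the intron before it and the first 2 of the intron after it in lower case. They are the pair that flanks the variable exons of Ptprc, then members that some isoforms skip, and then members found in many isoforms. All are GRCm38 sequences read 5′ to 3′ on the strand of the gene.
Ptprc, chr1:138126303-138126326, minus strand: agGGCAAACACCTACACCCAGTGATGgt
Ptprc, chr1:138115619-138115642, minus strand: agCTACCACAACGAAGCAAACATGTGgt
Cd47, chr16:49908054-49908078, plus strand: agAAAGCTGTAGAGGAACCCCTTAACGgt
Hnrnpc, chr14:52098015-52098040, minus strand: agTGAGATTTTTTTGATCTTCAGCTACAgt
Max, chr12:76961263-76961289, minus strand: GAAGAGCAACCGAGGTTTCAATCTGCG
Fip1l1, chr5:74585046-74585072, plus strand: GTATTCCAATAACTGTACCACCTCCAG
Dnm2, chr9:21490658-21490669, plus strand: agGGGGAGATCTTGgt
Anxa6, chr11:54987051-54987068, minus strand: agGTGGCTGCTGAGATCTTGgt
Lat, chr7:126368942-126368969, minus strand: TCTCCTATGACAGCACTTCCACAGAGAG
Lcp2, chr11:34078244-34078269, plus strand: agGAAAGAAACCACCATTTTCTGATAAGgt

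Most members were close to the upper limit of length. Of the 340 members, 311 had at least 20 nt and 64 had exactly 30 nt. Just inside the limit 39 members had 29 nt, and just outside it 43 exons had 31 nt and 54 had 32 nt. The shortest annotated member was the 12-nt exon of Dnm2, and no annotated member was shorter. The 8 members under 12 nt were all absent from the annotation. The annotated members lay in 268 genes, of which 239 had 1, 27 had 2 and 2 had 3.

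**Figure D1:**
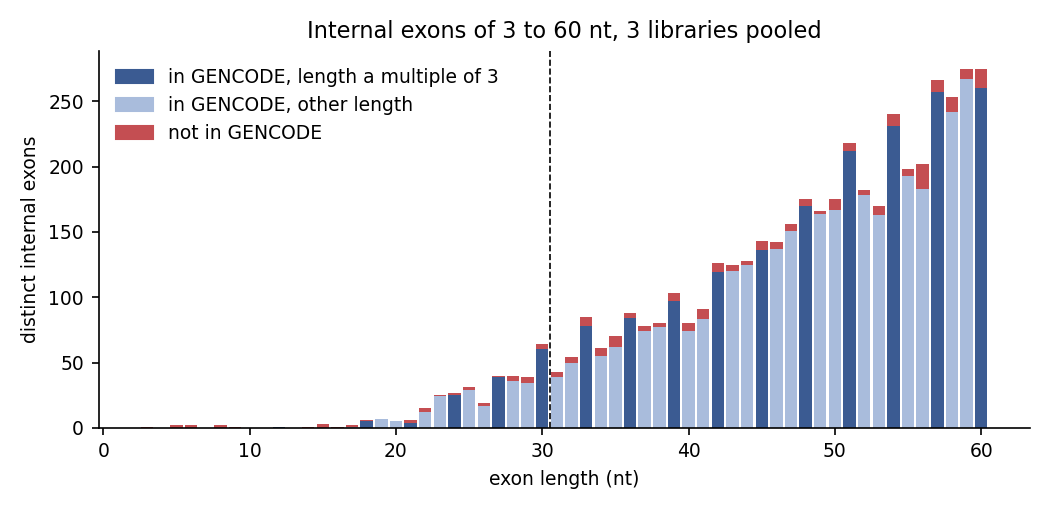
Number of distinct internal exons (vertical axis) at each length from 3 to 60 nt (horizontal axis), pooled over the 3 libraries, with exons of the GENCODE annotation in blue (dark where the length is a multiple of 3) and other exons in red. Exons of 30 nt or less lie left of the dashed line, where counts fall from 64 at 30 nt to 5 at 20 nt.

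The length was a multiple of 3 in 151 of 340 members (44.4%, interval 39.1 to 49.9), against 23466 of 61540 internal exons (38.1%, interval 37.7 to 38.5). The other members were split evenly, with a remainder of 1 in 94 and of 2 in 95. Among annotated exons the share was 44.8% at 30 nt or less (interval 39.1 to 50.6) and 38.4% above 30 nt. Of the 299 annotated members, 280 lay wholly inside coding sequence (93.6%), which was close to the 93.2% of longer annotated exons. None of these 280 held a stop codon in its annotated frame. A further 8 held a start or stop codon, such as the 27-nt exon of Psma4, a proteasome subunit, and the 29-nt exon of B2m, the light chain of MHC class I. The remaining annotated members were 5 in 5′ UTRs, 1 in a 3′ UTR (Taf1d, 30 nt) and 5 in noncoding transcripts.

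Several of the 10 most included members lay in genes of T cell signaling, such as the 28-nt Lat exon and the Fyb exons. The 30-nt Lat exon and those of Lcp2 and Arhgef1 are named from the list of T cell signaling and adhesion genes. Of the 26 genes of that list with a multi-exon isoform in any library, 5 had a member. The share of all genes with a member is not given here, so members are not shown to be frequent in such genes. The 28-nt exon of Lat, the membrane adaptor that couples the T cell receptor to downstream signaling, was in 12 of 13, 8 of 10 and 9 of 9 multi-exon isoforms of the gene, with the libraries ordered as naive, undivided and 2 divisions. A further Lat exon of 30 nt was in 4, 5 and 4 isoforms. Lcp2, the gene of the adaptor SLP-76 that acts beside Lat, had a 26-nt exon in 3 of 3, 5 of 5 and 4 of 5 isoforms. The intron after this Lcp2 exon did not end in AG in the models. Fyb, whose product binds SLP-76, had a 23-nt exon in 6, 7 and 5 isoforms and a 26-nt exon in 6, 6 and 5. Arhgef1, a guanine nucleotide exchange factor, had a 30-nt exon in 4, 3 and 1 isoforms. In none of these exons did an isoform join the 2 flanking exons directly.

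The 24-nt exons of Ptprc enclose the variable exons of CD45, the surface phosphatase whose shortest form marks activated and memory T cells. The more upstream of them was in 17, 17 and 14 isoforms and the other in 18, 17 and 14, in the order naive, undivided and 2 divisions. Among the isoforms with both, the members were joined directly in 2 naive isoforms, 4 undivided isoforms and 2 isoforms after 2 divisions. A single exon stood between them in 6, 8 and 8 isoforms, and 2 exons in 6, 4 and 4. All 3 variable exons were present in 3 naive isoforms, 1 undivided isoform and 0 of 14 isoforms after 2 divisions, whose interval reaches 23.2%. No isoform of any library joined the flanks of either microexon, while the exons between them varied.

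Other members in many isoforms lay in genes outside this group. Gtf2i, a transcription factor, had 2 members of 29 nt. The exon at chr5:134242131-134242159 was in 10, 5 and 2 isoforms, which was every multi-exon isoform of the gene, and the exon at chr5:134286695-134286723 in 4, 2 and 1. The 28-nt exon of Lrmp, a lymphocyte membrane protein, was in 4, 5 and 8, again all of them. For the first Gtf2i exon and that of Lrmp the number of including isoforms therefore moved with the number of isoforms of the gene and not with the choice of the exon.

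**Figure D2:**
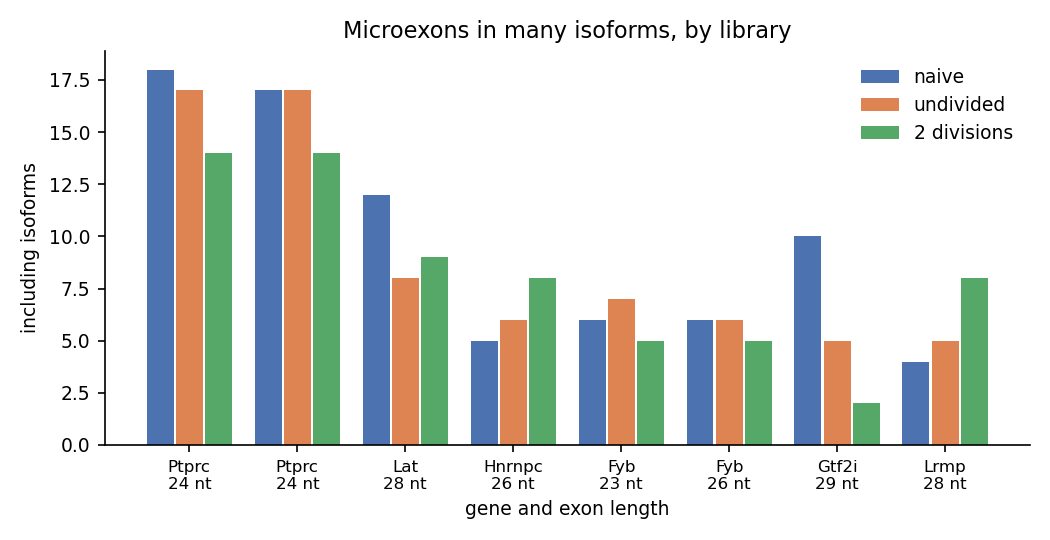
Number of isoforms that include the exon (vertical axis) in each library for 8 microexons found in many isoforms, named by gene and length on the horizontal axis. The pair in Ptprc has 14 to 18 including isoforms in every library, and the exon of Gtf2i shown has 10 in naive cells and 2 after 2 divisions.

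Numbers of members were alike in the libraries. The naive library listed 224 members, the undivided library 247 and the 2-division library 232, which was 0.537%, 0.502% and 0.524% of their internal exons. Of isoforms with at least 3 exons, 414 of 8520 naive isoforms (4.86%, interval 4.41 to 5.34), 502 of 11249 undivided isoforms (4.46%, interval 4.09 to 4.86) and 428 of 9822 2-division isoforms (4.36%, interval 3.96 to 4.78) carried a member. These intervals overlap. All 3 libraries listed 150 members (44.1%, interval 38.8 to 49.6), against 47.9% of all internal exons. A single library listed 127 members (37.4%, against 28.3% of all internal exons). These were 46 in the naive library (13.5%, against 10.2%), 45 in the undivided library (13.2%, against 11.2%) and 36 in the 2-division library (10.6%, against 6.87%). Both activated libraries and not the naive one listed 35 (10.3%, against 14.1%). For 28 of the 46 and 26 of the 35, the gene itself had no multi-exon isoform in the libraries without the member. The same share over all internal exons is not given here, so this is not shown to be particular to members. Examples in naive cells only were the 24-nt exon of Cd3g, a chain of the T cell receptor complex, in 2, 0 and 0 isoforms and the 27-nt exon of Pecam1, an adhesion receptor, in 6, 0 and 0. The 29-nt exon of H2-Ob, an MHC class II-like chain of B cells, was in 2, 0 and 0. Of the B cell markers, Cd79b had 1, 0 and 0 isoforms, Ms4a1 had 2, 0 and 0, and Cd79a had none in any library. All 6 markers of CD4 T cells had isoforms in naive cells and 4 of 6 in each activated library. Naive cells were isolated with a kit for naive CD4+ T cells, which is meant to remove B cells. The part of other cells in the naive list was not tested, and in bulk RNA fewer cells of a type cannot be told apart from less RNA per cell.

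Members were left out by some isoforms more often than internal exons in general. For 21 of 340 members (6.18%, interval 3.86 to 9.29) at least 1 isoform of any library joined the same flanking exons directly, while 2.11% of all 61540 internal exons were skipped in this way. Among annotated exons the shares were 5.69% at 30 nt or less (interval 3.35 to 8.95) and 1.76% above 30 nt. Of the 21 members with both forms, 7 had a length that is a multiple of 3 and 14 did not. For 18 of the 21 the joining intron is itself annotated.

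Cd47 had the most isoforms that covered a skipped member. The gene encodes a surface receptor that inhibits phagocytosis, and alternative splicing of short exons sets the length of its cytoplasmic tail. Its 25-nt exon was included in 3 and skipped in 6 naive isoforms, included in 7 and skipped in 8 undivided isoforms, and included in 4 and skipped in 6 2-division isoforms. Naive isoforms thus had an included share of 33.3% (interval 7.49 to 70.1), undivided ones 46.7% (interval 21.3 to 73.4) and those after 2 divisions 40% (interval 12.2 to 73.8). The intervals overlap widely, and both forms were present in every library.

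The same held for other members with both forms everywhere. The 26-nt exon in the 5′ UTR of Hnrnpc, an RNA-binding protein of nuclear pre-mRNA, was included in 5, 6 and 8 isoforms and skipped in 1, 3 and 4, in the order naive, undivided and 2 divisions. The 27-nt exon of Max, the dimerization partner of Myc, was included in 2, 3 and 2 isoforms and skipped in 4 of each library. The 18-nt exon of Anxa6, a calcium-dependent membrane-binding protein, was included in 3, 1 and 1 and skipped in 1 of each library. The 30-nt exon of Acly, the enzyme that makes cytosolic acetyl-CoA, was included in 1, 2 and 1 and skipped in 1 of each. These members and Cd47 were the 5 with both forms in every library.

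Members whose form differed between libraries were few. Among members covered by an isoform of either form in both libraries of a pair, the forms differed in 9 of 175 between naive and undivided cells (5.14%, interval 2.38 to 9.54), against 2.01% of all internal exons. Between naive cells and cells after 2 divisions they differed in 8 of 168 (4.76%, interval 2.08 to 9.17), against 1.82%, and between the activated libraries in 8 of 191 (4.19%, interval 1.83 to 8.09), against 1.67%. These pairs share libraries. With at least 2 covering isoforms in each library the shares were 5.19%, 3.03% and 2.08% in the same order.

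Fip1l1 and Dnm2 were the members that differed between naive cells and both activated libraries with at least 2 covering isoforms in each. Fip1l1 encodes a subunit of the cleavage and polyadenylation machinery. Its 27-nt exon was in 0 of 2 naive isoforms, 6 of 8 undivided isoforms and 4 of 5 2-division isoforms. The naive library had only 2 isoforms at this site, so the interval of its share reached 84.2% and included the shares of the activated libraries. Dnm2 encodes dynamin 2, a GTPase that cuts endocytic vesicles from the membrane. Its 12-nt exon was in 5 of 7 naive isoforms and in all of 3 undivided isoforms and 2 isoforms after 2 divisions, with lower bounds of 29.2% and 15.8% in the activated libraries.

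Other differences rested on few isoforms. The 22-nt exon of Snx2, a retromer-associated sorting nexin, was included in 0, 1 and 0 isoforms and skipped in 3, 2 and 2. The 20-nt exon of Zfp330, a zinc finger protein, was included in 2, 1 and 1 and skipped in 0, 1 and 0. The 26-nt exon of Cdc7, a kinase that starts DNA replication, was included in 0, 0 and 1 and skipped in 1, 2 and 1. The 23-nt exon of Pecam1 was included in 3 and skipped in 3 naive isoforms, and was skipped in the only 2-division isoform. The remaining members with both forms (Ccnl2, Mars, Oxr1, Sf3b3, Flna, Ccdc66, Cenpc1, Trim30d, Mrpl24 and, outside the naming rule, Trim68) had 1 to 4 isoforms of each form in all, except Ccnl2, a cyclin of splicing speckles, whose 14-nt exon was included in 5 and skipped in 3.

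**Figure D3:**
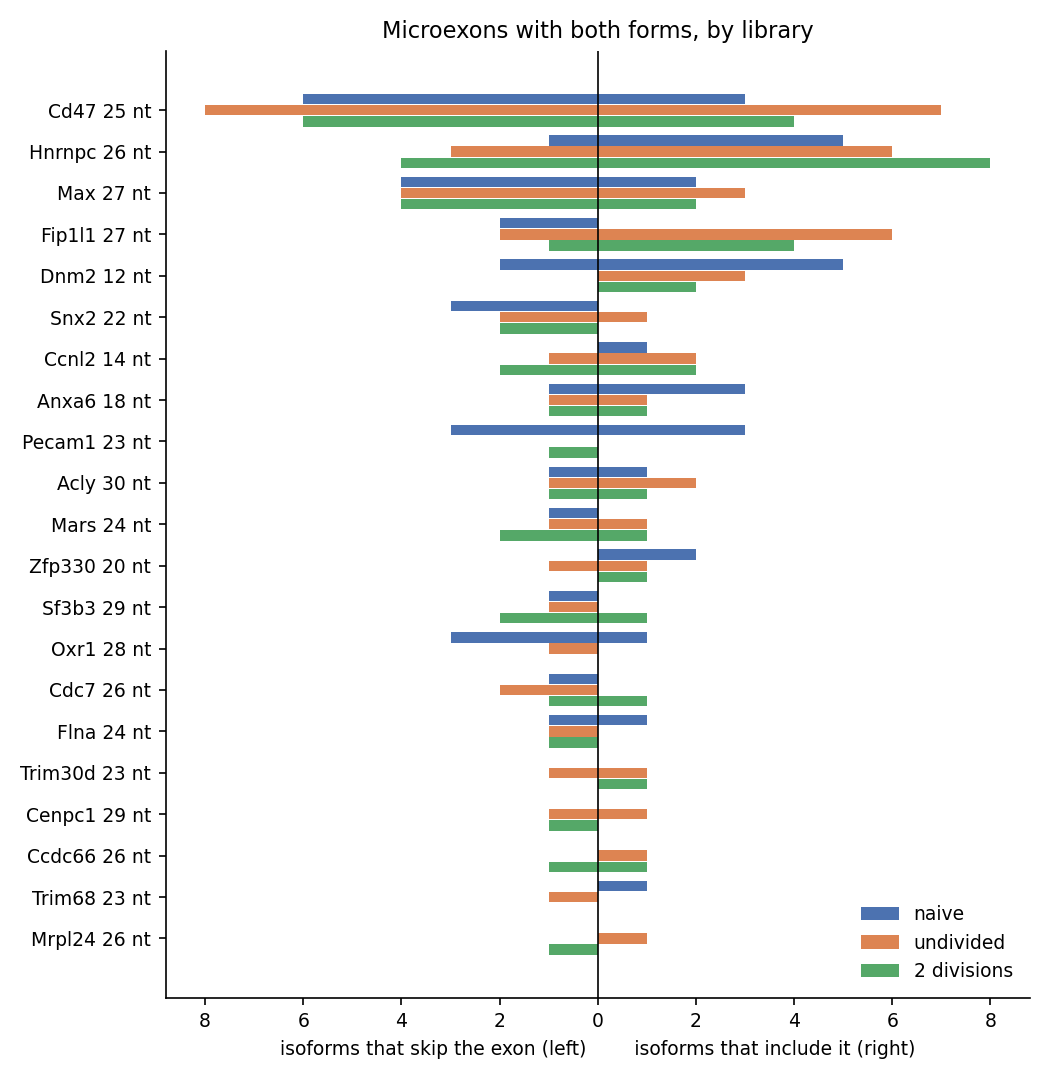
Isoforms of each library that include (bars to the right) or skip (bars to the left) each of the 21 microexons with both forms, named by gene and length and ordered by the number of covering isoforms. Cd47, Hnrnpc, Max, Anxa6 and Acly show both forms in every library, and the exon of Fip1l1 has no including isoform in naive cells.

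The view from the annotation gave a larger set of skipped microexons. Of GENCODE internal exons of 3 to 30 nt whose site was covered by an isoform, 173 of 455 (38%, interval 33.5 to 42.7) were skipped across their annotated flanks by at least 1 isoform, while 5.43% of all 60200 covered annotated exons were. Of these 173, 156 were only skipped, so they are no members. Their lengths were multiples of 3 in 120 of 156 (76.9%, interval 69.5 to 83.3), against 127 of 282 microexons that were only included (45%, interval 39.1 to 51). Above 30 nt the length was a multiple of 3 in 41.2% of only-skipped and 38.3% of only-included annotated exons. Wholly coding were 80.8% of only-skipped and 94.3% of only-included microexons, and above 30 nt 24.4% and 93.8%. For 149 of the 156 the annotation itself holds the joining intron (95.5%), against 27 of the 282 (9.57%). Longer annotated exons had a like split, with 2047 of 2086 only-skipped exons (98.1%) and 3252 of 56649 only-included ones (5.74%). The share skipped was alike in the libraries. The naive library had 36.2% (interval 30.9 to 41.8), the undivided library 35.5% (interval 30.4 to 40.8) and the 2-division library 35.4% (interval 30.2 to 40.9). Many of the covered exons are the same in each library, so these intervals do not measure the spread between libraries.

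Of the 156 only-skipped microexons 57 had 15 nt or less (36.5%), and none of the 282 only-included ones did. The 12-nt exon of Gramd1a, a sterol transfer protein, was skipped in 11, 6 and 7 isoforms. The 18-nt exon of Ewsr1, an RNA-binding protein, was skipped in 10, 8 and 6, and the 15-nt exon of Chchd3, a mitochondrial cristae protein, in 2, 4 and 3. The 24-nt exon of Gnas, the stimulatory G protein subunit, was skipped in 0, 5 and 4. Of 23 genes known for microexons of neurons or muscle, 8 had a multi-exon isoform in any library, none had a member, and 6 had in all 10 microexons that were only skipped. Over all genes, 300 had a member and 139 had an only-skipped microexon. Their share of all genes with an isoform is not given here, so the counts are not shown to be particular to this list. Abi1, a regulator of actin assembly, had 2 exons of 15 nt, each skipped in 3, 2 and 3 isoforms. Eif4g1, the scaffold of translation initiation, had a 21-nt exon skipped in 1, 2 and 3. The SNARE gene Vti1a had a 21-nt exon skipped in 0, 1 and 1, and Clasp1, Dctn1 and Mef2c had 4, 1 and 1 such exons with 1 skipping isoform each. Their sequences, with nothing but the exon, are
Abi1, chr2:22963214-22963228, minus strand: TGGCTAAAAGCCAAG
Abi1, chr2:22971027-22971041, minus strand: AAATTGTGGCAGGAA
Eif4g1, chr16:20674786-20674806, plus strand: GGAGGATTCAGGTCTCTGCAG
Vti1a, chr19:55387189-55387209, plus strand: TTGATAAAATTACGTGAAGAG

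Among 21 genes of proteins known to regulate microexons, 12 had a multi-exon isoform in any library. The 9 without one were Srrm3, Srrm4, Rbfox1, Rbfox2, Rbfox3, Nova1, Nova2, Qk and Celf1, some of which are known from neurons and some from many tissues. Ptbp2, the neuronal relative of Ptbp1, had 0, 1 and 1 isoforms. Ptbp1 had 4, 7 and 4 isoforms and Ptbp3 7, 7 and 3. Srrm1, Rnps1 and Srsf11, general splicing cofactors, had 6, 8 and 6, 4, 7 and 5, and 2, 7 and 4. Mbnl1, a muscleblind splicing regulator, had 12, 3 and 0. None of the 21 genes had a member. The share of all genes with a member is not given here, so this is not shown to be particular to these genes. With isoform lists in place of read counts, a gene without an isoform is not shown to be silent.

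Inclusion in the models varied with length. No annotated microexon of 3 to 15 nt other than that of Dnm2 was found in an isoform: 1 of the 89 whose region was seen in any form was included (1.12%, interval 0.0284 to 6.1). The included share was 34% at 16 to 20 nt (18 of 53, interval 21.5 to 48.3) and 76.3% at 21 to 30 nt (280 of 367, interval 71.6 to 80.6). A further group was found beside altered exon borders. For 71 annotated microexons an isoform lacked the microexon and kept 1 annotated flank. The intron ended or started up to 30 nt away from the other flank, and the annotation lacks this intron. Whether the moved end is also an end of another annotated intron was not checked. Such an intron was found for 13.9% of the 509 annotated microexons seen in any form (interval 11.1 to 17.3). It was found for 0.0686% of annotated exons over 30 nt, and for 0.186% of all annotated internal exons. Borders were sought only up to 30 nt from the flank. A neighbor extended by the length of an exon over 30 nt could therefore not be counted. The share above 30 nt is thus no measure of how often such extensions occurred beside longer exons.

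In 73 of the 74 pairs of such a microexon and intron, the neighboring exon was extended into the intron. The added length was within 5 nt of the length of the missing microexon for 52 of the 71. The search window kept every added length to at most 30 nt. How many such matches the window alone would give was not tested. Above 30 nt the neighbor was extended in 25 of 41 pairs. In 43 of the 74 pairs the new intron did not have GT and AG at its ends. The annotation holds an intron that skips the microexon for 22 of the 71 and none for 49. Other isoforms included 8 of the 71. For 54 of the 71 no isoform of any library included or exactly skipped the exon, and 44 of these are among the 49. The libraries listed 91, 128 and 102 isoforms with such a border, in the order naive, undivided and 2 divisions.

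Genes with many of these isoforms show the pattern. The 16-nt exon of Hnrnpk, an RNA-binding protein, was in no isoform, and in 12 of 13 naive, 17 of 20 undivided and 13 of 14 2-division isoforms of the gene the exon before it ran on by 16 nt. In Lcp2 a 20-nt and a 13-nt exon were absent from all of 3, 5 and 5 isoforms, beside flanks longer by 16 and 9 nt. The intron over the missing 20-nt exon is the one after the 26-nt member of Lcp2, and it ends in CT. The 18-nt exon of Hprt, a purine salvage enzyme, was absent from all of 1, 2 and 2 isoforms beside a flank longer by 23 nt. The 23-nt exon of Vav1, an exchange factor downstream of the T cell receptor, was absent from 2 isoforms of each library beside a flank longer by 24 nt. In Cd3e, a chain of the T cell receptor complex, the annotated exons of 18 and 15 nt follow each other. In 1, 2 and 1 isoforms a 28-nt exon stood in their place, which is the 18-nt exon and the next 10 nt, with an intron that begins with AT and without the 15-nt exon. Only 1 undivided isoform had the 18-nt exon as annotated. Pairs of the missing exon and the bases added to its neighbor follow, with letters that are the same at the same distance from the flank in capitals.
Hnrnpk exon, chr13:58393853-58393868, minus strand: GgTGgtTcTggATAtg
Hnrnpk added bases: GtTGagTaTcaATAat
Vav1 exon, chr17:57305459-57305481, plus strand: aTtTcgCagGaAccATGaAGaag
Vav1 added bases: gTaTttCtaGgAtaATGtAGggaa
Capn2 exon, chr1:182482536-182482547, minus strand: GTtCCaGagGAG
Capn2 added bases: GTaCCgGcaGAGgatgg
Cd3e exon, chr9:45005512-45005526, minus strand: aTgccgagaacattg
Cd3e added bases: gTaagatatg
The pairs shown are examples, and Capn2 had this border in only 2, 2 and 0 isoforms. The same letters were 8 of 16 in Hnrnpk, 10 of 23 in Vav1, 8 of 12 in Capn2 and 1 of 10 in Cd3e. In the Lcp2 pairs, which are not shown, they were 4 of 16 and 2 of 9. Over all pairs, 37.6% of 885 compared letters were the same, against 33.6% of 226 beside longer exons. Whether reads with these microexons were aligned to the intron next to them was not tested, as reads were not analysed here, and the same holds for reads behind the only-skipped exons. The counts of members are therefore counts of what the models list.

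**Figure D4:**
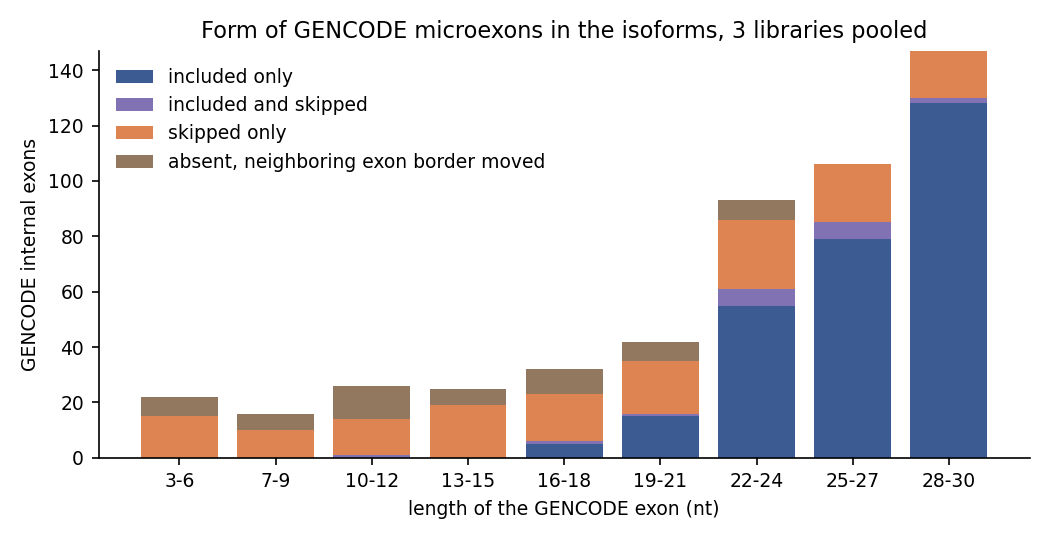
Number of GENCODE internal exons of 3 to 30 nt (vertical axis) by length class (horizontal axis), split by the form found in the isoforms of the 3 libraries pooled. Included exons are 1 of 89 up to 15 nt and 130 of 147 at 28 to 30 nt, and exons found only as absent beside an extended neighbor lie at lengths up to 24 nt.

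The shortest annotated members after Dnm2 were the 17-nt exon of Sugt1, a kinetochore and chaperone cofactor, in 0, 2 and 1 isoforms, and 18-nt exons in Adgrl1 (1, 0 and 1), Anxa6, Cd3e, Mau2 (1, 0 and 1) and Sptan1 (2, 2 and 0). The 19-nt exon of Gtf2f2, a subunit of the general transcription factor TFIIF, was in every isoform of the gene, with 1, 5 and 3. The 19-nt exons of Ik and Nbr1 were in 1, 2 and 2 and in 1, 1 and 0.

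Members in related genes had alike sequences and positions. Among 5712 pairs of members of the same length, at least 18 nt and in different genes, the median identity was 27.6%, and 42 pairs (0.735%) reached 60%. Of these 42, 19 were pairs of TRIM genes, which encode ubiquitin ligases with a RING, B-box and coiled-coil core. The others were mostly pairs within a family, such as the YTH readers Ythdf2 and Ythdf3 (88% over 25 nt), the poly(C)-binding proteins Pcbp2 and Pcbp3 (87.5% over 24 nt) and the nucleosome-binding Hmgn2 and Hmgn5 (80% over 30 nt). In 4 pairs the letters of the exon were identical. Whether reads of these copies were split between genes was not tested.

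TRIM genes held 19 members in 12 of the 20 TRIM genes with a multi-exon isoform. A 23-nt exon was present in 11 of them, always in the same reading frame, and in 10 of the 11 the exon before it was 231 nt long. A 27-nt exon was present in 7, all of which had the 23-nt exon too. In Trim26 and Trim11 the annotated 23-nt exon was absent beside an extended neighbor, in 3, 2 and 2 and in 2, 1 and 1 isoforms. Letters equal to those of Trim12c are in capitals in the 23-nt exons below.
Trim12c: GGTGTGGAGAACATCATAAAACG
Trim12a: GGTGTGGAGAACATCATAgAACG
Trim30d: GGTGTaaAttAtgTCcTgAcAaG
Trim39: GaTGTGaAaAgtAcCcTAgAAaa
Trim68: GGTaTtcAGgAagcCtTgAAcaG
Trim34a: GaTaTGagcggtATttTgAAAtG
Trim41: GacaTcaAGgAgActtTcAAtaG
Trim27: GacaTtGgagACAcacTgAgcaG
The 23-nt exons were in 5, 5 and 2 isoforms of Trim12c, 5, 3 and 2 of Trim12a, 2, 5 and 2 of Trim30a and 2, 4 and 2 of Trim34a. The 27-nt exons of Trim12c (chr7:104341619-104341645) and Trim12a (chr7:104300836-104300862), both on the minus strand, differ by A17T and G25A, counted from the first base of the exon with the base of Trim12c first.
Trim12c: AGGTCACAGAGGCTCAACGCTACTGGG
Trim12a: AGGTCACAGAGGCTCAtCGCTACTaGG
In the frame of Trim12c the codon at bases 24 to 26 is TGG, and in Trim12a it is TAG, the annotated stop of that gene. The Trim12a exon was in 6, 3 and 2 isoforms and the Trim12c exon in 4, 3 and 2.

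In 12 genes an isoform held 2 annotated members in a row. Cyb5b, a mitochondrial cytochrome b5, had members of 30 and 29 nt together in 1, 3 and 3 isoforms, and Sarnp, an mRNA export factor, had members of 29 and 26 nt in 1, 2 and 1. Traf3ip3 had members of 25 and 30 nt together in 3 naive isoforms and in none of the other libraries, while the gene had 13, 4 and 2 isoforms. The 25-nt exon lay inside a wider intron in 10, 4 and 2 of them.

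The splice sites of members were compared with those of other exons. GT and AG bounded both introns in 310 of 339 members on reference chromosomes (91.4%, interval 87.9 to 94.2), against 97.1% of all internal exons, and in 98% of annotated members. The pyrimidine share of the 20 nt before the AG had a median of 80% in members and 75% in all internal exons. C or T was more frequent before annotated members than before longer annotated exons at each position from -35 to -5 in the plot of pyrimidines. Position -1 is the last base of the intron. The values were 64.9% against 58.3% at -25, and 90.6% against 81.4% at 11 nt before the exon. GTAAGT or GTGAGT followed 138 of 299 annotated members (46.2%, interval 40.4 to 52) and 28.6% of longer annotated exons. The exon itself ended in AG in 48.2% of annotated members (interval 42.4 to 54) and in 56.5% of longer ones. TGC, the DNA letters of the UGC motif, stood on the strand of the gene in the 50 nt before 188 of 339 members (55.5%, interval 50 to 60.8) and before 59.1% of all internal exons. A match is a description of these letters only. The intron after a member had a median of 751 nt (interval 639 to 898), against 1028 nt for all internal exons, and the intron before it 1037 nt against 1121 nt. The 30 nt before some of the skipped members, ending with the AG, show the tract.
Max: ttttctatttttctctctctcttattccag
Anxa6: ctccctcctctgtcccctccccgctctcag
Hnrnpc: tgggctatttttatttttgtttttttacag
Mars: ttcctcacttacgtttctttcctgtcttag
The pyrimidine share of the 20 nt before the AG was 95% in Max, 90% in Anxa6, 85% in Hnrnpc and 85% in Mars. It was 65% in Cd47 and 70% in Dnm2, so skipped members lay on either side of the median of all exons.

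**Figure D5:**
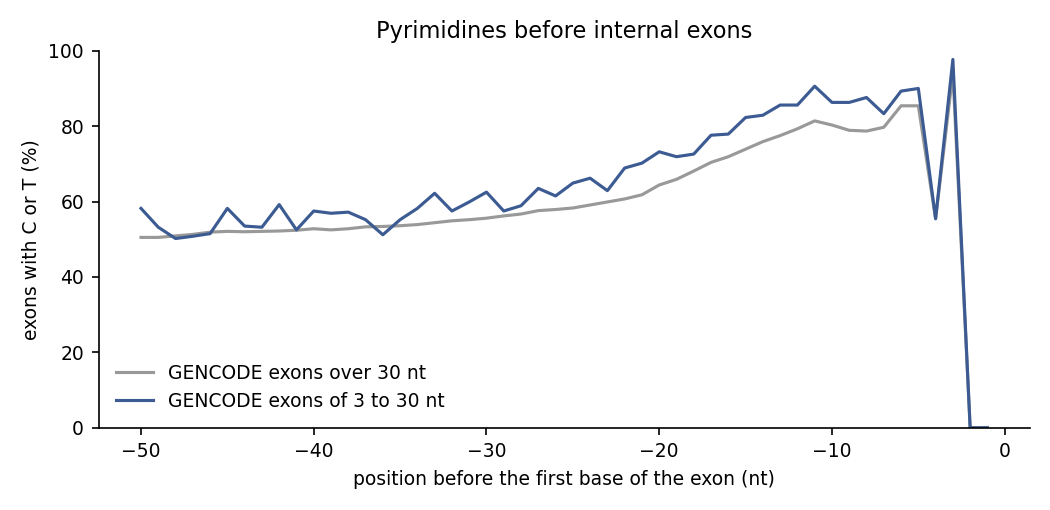
Share of exons with C or T (vertical axis, percent) at each position before the first base of the exon (horizontal axis, nt), for 299 GENCODE exons of 3 to 30 nt in blue and 57644 longer GENCODE exons in gray. The microexons lie higher at each position from -35 to -5, with 64.9% against 58.3% at -25. At 11 nt before the exon the values are 90.6% against 81.4%, and both lines fall to near 0 at the AG.

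The 41 members outside the annotation were of several kinds. GT and AG bounded 17 of 40 of them on reference chromosomes (42.5%, interval 27 to 59.1), and 5 were exons in RefSeq. In 35 of the 41 only 1 isoform held the exon, against 77 of the 299 annotated members. In 13 the gap on at least one side was 6 to 13 nt, shorter than any intron beside an annotated member, the shortest of which had 73 nt. None of the 13 had GT and AG at both introns. Of them 12 lay in 8 named genes and 1, on chromosome Y, in no gene. Among the genes were Ctsw with members of 15, 5 and 3 nt and Stx4a with 22 and 5 nt. The best-covered members with GT and AG were those of Ptcd3, a mitochondrial ribosome factor, with 25 nt in 1, 4 and 3 isoforms, Ccnl2 with 14 nt, and Mia3, a cargo receptor for collagen export, with 22 nt in 1, 3 and 1. RefSeq holds the exons of Ccnl2 and Mia3 and not that of Ptcd3. The others by the naming rule (Acap1, Arhgap45, Bora, Casp8, Cdc7, Cenpc1 and Eef2) each rested on 1 isoform.
Ptcd3, chr6:71889341-71889365, minus strand: agATTTTTTCAGTTGGCCATGAGTGTGgt
Ccnl2, chr4:155818539-155818552, plus strand: agGGTAGCCTCTGAGGgt
Mia3, chr1:183339366-183339387, minus strand: agGTAAAGAGTAGAGTATATCAAGgt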

How the data were processed

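Libraries of CD4+ T cells from mouse spleens and lymph nodes were made and sequenced on the PacBio Sequel by a facility. Per the study's methods, the authors built consensus reads (ccs), removed primers (lima), refined and clustered the reads (isoseq3), mapped them (pbmm2), collapsed them (isoseq3) and annotated the transcripts with SQANTI3. The names of the deposited files call the models corrected. The submitters' processing notes name minimap2, Subread, mm10 and GRCm38. The deposited values are exon positions without read counts (unit: other), for 10527, 12602 and 11109 isoforms in naive, undivided and 2-division cells. An aligner that misses short exons would lower the counts of included microexons. It could raise the counts of skipped microexons and of microexons beside a moved border.

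Multi-exon isoforms of the 3 libraries were pooled and internal exons of 3 to 30 nt taken. Genes, place and frame came from GENCODE M21, which is older than the release named in the study, so an exon called unannotated may be annotated there. Sequence came from RefSeq GRCm38. An exon was skipped where an isoform joined the same flanking exons. Intervals were exact Clopper-Pearson at 95%. The code was tested on simulated transcripts. Scripts ran in Python 3.11.15 with numpy 2.4.6 and scipy 1.17.1, and figures were drawn with matplotlib 3.10.9.

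Members and gene lists were chosen with earlier results of these data known. The text names up to 20 members with both forms, the 10 shortest annotated, the 10 most included, up to 10 unannotated members with GT and AG, members in the listed genes, and members whose form differs between libraries that both have at least 2 covering isoforms. Chosen after values were seen were the comparison of members at 60% identity, the donor letters, skipping across annotated flanks, the moved borders, and all other genes named. A few items that the rule names are not reported here. Alternatives were other length limits, intron filters, windows and definitions of skipping.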

Additional observations from a re-analysis of the deposited data

How the results depend on the processing

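Of 52 recomputed values, 35 stayed within the interval of the value given, or within 1.5 times it for a count, and 17 moved. With an upper limit of 27 nt there were 197 microexons, and with 51 nt 2727, of which 94.4% were annotated and 95.5% had GT and AG at both introns. With introns of at least 50 nt these shares were 91.4% and 95.1%. With any containing intron counted as skipping, 13.5% of members and 3.22% of all internal exons were skipped, and the form differed in 12.6% between naive and undivided cells, 12.2% between naive cells and cells after 2 divisions, and 8.33% between the activated libraries. With any overlap with coding sequence, 96.3% of annotated members were coding. TGC stood within 30 nt before 36% of members, and the median pyrimidine share of 40 nt was 67.5%. Chosen after seeing the data, the share of annotated microexons skipped was 25.3% with at least 2 skipping isoforms, 16.9% up to 51 nt and 50% up to 27 nt, and 42 annotated microexons had an extended neighbor when borders moved by up to 15 nt. These shifts follow from the definitions, which change the exons or the isoforms counted. Thinning to equal numbers of isoforms was planned and not run. No paired analysis was possible because each condition had 1 library. The number of isoforms at a site limited each share by library.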

Other observations

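Exons of 30 nt or less also occurred at the ends of isoforms, where the rule for members does not reach. The first exon was this short in 191 naive, 336 undivided and 285 2-division isoforms, and the last exon in 45, 84 and 70. The ends of isoforms depend on where reads start and stop, and these exons were not compared further.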
